A study of Canis lupus familiaris with 14 samples.

Results

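Small single-exon genes of 110 to 199 bases were examined in 14 whole-blood RNA libraries of dogs. A gene was taken when its exon intervals merged into 1, its length was 110 to 199 bases, it lay on a numbered chromosome or X, and it had at least 10 counts in at least 7 of the 14 libraries. The rule was met by 106 genes, out of 30951 in the table and out of 1107 of the same structure, size and placement. The count minimum read the libraries of both groups together, so that these genes had counts in blood is a matter of choice and not a result. The lymphoma group held 7 libraries from blood of dogs with lymphoma, a cancer of lymphocytes. The control group held 7 libraries labelled non-lymphoma, which the series' design text describes as another disease. The labels used here give no breed, age, treatment or type of lymphoma for either group. They name total RNA, with no statement on selection by size, polyadenylation or removal of ribosomal RNA, which bears on RNAs this small. Nor do they state that each library came from a separate animal, so p-values measure only the spread between these libraries.

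Several kinds of RNA are made at this size. H/ACA small nucleolar RNAs guide the change of uridine to pseudouridine in ribosomal and spliceosomal RNA, and in vertebrates most of them are cut out of introns of longer host genes. The spliceosomal RNAs U1, U2 and U4 take part in the removal of introns, are transcribed from promoters of their own and have many pseudogene copies. MicroRNA precursors and small pseudogenes can fall in the same range. The table pairs no identifier with a symbol or a gene type, and 0 of the 30951 identifiers were found in the reference gene table. The genes are therefore called by position in the CanFam3.1 assembly, no role can be given for single genes, and lists of cell type markers and of protein partners of these RNAs could not be matched. In whole blood, fewer cells of a type and less RNA per cell cannot be told apart.

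The lengths of the 106 genes set limits on that background. Of the 106, 44 were of 125 to 139 bases, which was 12.4% of the 355 table genes in that range. In the RefSeq gene table of another dog assembly, UU_Cfam_GSD_1.0, 163 of 360 genes of that length are small nucleolar RNA genes. The table has 29 genes of 191 bases and 18 of 164 bases, and 0 of either met these conditions. At those lengths the RefSeq table lists 28 and 51 small nuclear RNA genes. The lengths held by most of the 106 genes were 131, 135, 174 and 183 bases, with 5 genes each. Lengths of 125, 126, 130, 132 and 133 bases held 4 each, and those of 134, 138, 141, 156 and 180 bases held 3 each. Nothing in the table shows that a given gene belongs to either family, and the counting set no option for read pairs that map to several places. Whether near-identical copies lowered the counts at 164 and 191 bases was not tested.

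The libraries differed in depth between the groups. Total counts ranged from 9845059 to 14831589 in lymphoma and from 13522628 to 21610927 in non-lymphoma libraries, and the 106 genes together had 2455 to 6930 and 4146 to 7188 counts. The factors that put libraries on 1 scale (TMM, the trimmed mean of M-values) ran from 0.67 to 1.15 and from 0.869 to 1.31. Lymphoma replicates 2 and 7 had the lowest factors, 0.67 and 0.679. Sample numbers of 5 digits were given to 9 libraries, among them lymphoma replicates 5 and 6, and the remaining 5, all lymphoma, are numbered differently. What this form stands for is not stated.

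The small genes took a minor part of the libraries, and that part differed between the groups by less than the spread of libraries. Their share of counts was 0.0368 ± 0.00951% in lymphoma and 0.0332 ± 0.00585% in the controls (± SD over 7 libraries each). Shares ran from 0.0249% in lymphoma replicate 2 (95% Wilson interval 0.024 to 0.0259%) to 0.0527% in lymphoma replicate 1 (0.0515 to 0.054%), and the non-lymphoma shares of 0.0252 to 0.0414% lay inside that range. Without lymphoma replicate 1 the difference of 0.00363 percentage points shrank to 0.000982, and it was 0.00645 within the libraries numbered with 5 digits. The intervals cover counting error only. No p is given for a sum over genes chosen on their counts.

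On a scale where every gene weighs the same, the lymphoma libraries lay higher. CPM (counts per 1000000 after TMM scaling) were put on a log2 scale with a prior count of 2, and each library's mean deviation from the average of the 97 genes that entered the test was taken. It ran from -0.03 to 0.34 in lymphoma, with a median of 0.10, and from -0.40 to 0.01 in non-lymphoma libraries, with a median of -0.06. Lymphoma replicates 1, 3, 4, 5 and 6 lay above every non-lymphoma library, while replicates 2 and 7 overlapped with them. Over all tested genes the same measure ran from -0.11 to 0.03 and from -0.07 to 0.08. Non-lymphoma replicate 2 was the lowest library of all for 18 of the 106 genes and lymphoma replicate 2 for 16, and lymphoma replicates 1 and 6 were the highest for 17 each. Lymphoma replicate 2 had 12 of the 106 genes at 0 counts, against at most 3 in any other library. A count of 0 allows a level of up to 3 counts, or 0.455 CPM in that library.

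**Figure D1:**
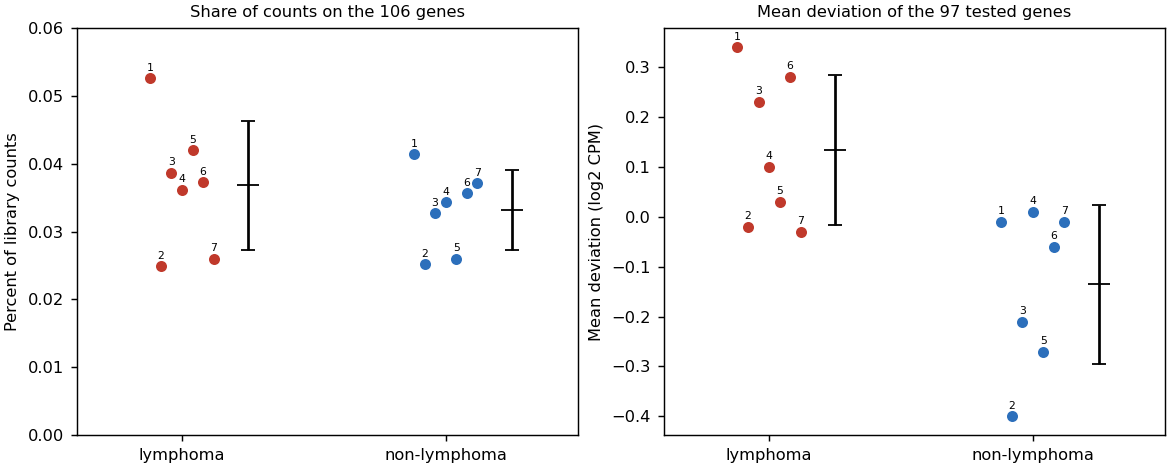
Left, share of library counts on the 106 genes, in percent; right, mean deviation in log2 CPM of the 97 tested genes. Each point is a library labelled with its replicate number, and bars give the group mean and SD (n = 7 each). The shares of the groups overlap over their whole non-lymphoma range, and on the right 5 lymphoma libraries lie above every non-lymphoma library.

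Set against the controls, lymphoma blood was tested for genes that differed in level. Of the 97 tested, 10 were called higher in lymphoma, or 10.3%, beside 9.21% of all 12836 tested genes. A call is an adjusted p under 0.05 in edgeR's quasi-likelihood test over all genes. In the other direction 1 of 97 was called lower, or 1.03%, beside 7.4% of all tested genes. The share called higher is thus near the background. The median log2 fold change was 0.29 among the 97 genes and -0.05 among all tested genes, and 74.2% against 47.3% had a positive value. Between the quartiles the 97 values ran from -0.01 to 0.69, with a median standard error of 0.39 against 0.27 for all tested genes. These are descriptions of a set picked by count, and no test of the set was made.

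The number of calls moved with the method. DESeq2 called 17 higher and 2 lower, library totals without scaling factors gave 5 and 2, and the 9 libraries with 5-digit sample numbers gave 2 and 0. Calls over all tested genes moved too. From 1182 higher and 950 lower they went to 1706 and 1471 with DESeq2 and to 545 and 1407 with library totals. Within the 5-digit libraries they were 82 and 22 of 14580 genes. With library totals alone the median of all tested genes moved to -0.26 and that of the small genes to 0.06, so that the distance between them was 0.32, against 0.34 with TMM. Without a filter on low counts the medians were -0.45 and 0.24, a distance of 0.69, over 28663 genes. Depth moved with the groups as given above. After thinning to the smallest total 7 were called higher and 2 lower of 75 tested, beside 1097 and 871 of all 12272. Of the 10 higher calls of the main fit 7 held.

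**Figure D2:**
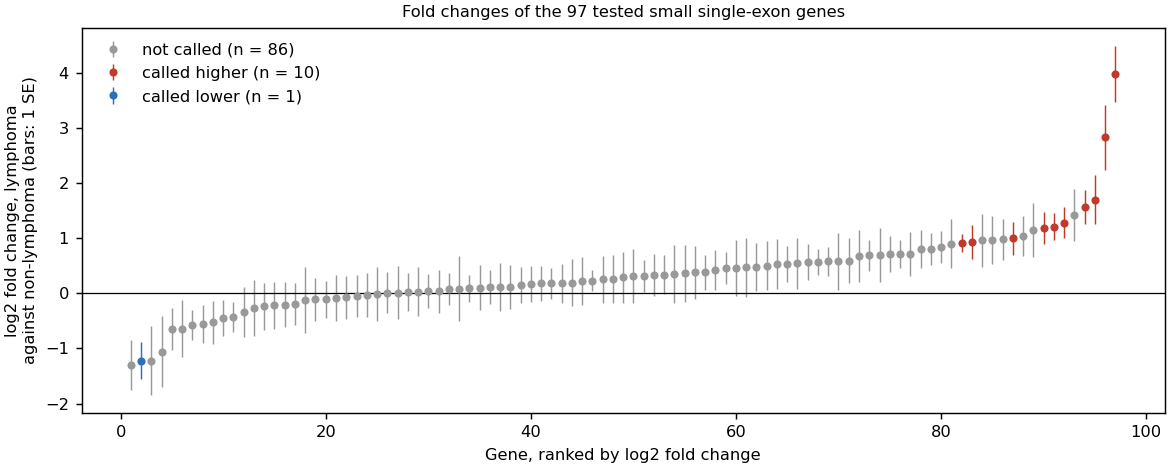
Log2 fold changes of the 97 tested genes in rank order, with bars of 1 SE; red, 10 genes called higher in lymphoma; blue, 1 gene called lower; grey, 86 genes not called. The values run from -1.30 to 3.98, and more points lie above 0 than below.

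The largest difference was at a gene of 185 bases on chromosome 21, at 32732079 to 32732263 on the plus strand (ENSCAFG00000021670). Lymphoma libraries held 14 to 215 of its counts, and controls 3 to 18. In lymphoma its level was 2.1 CPM at the lowest, 7.05 at the median and 16 at the highest. In non-lymphoma blood these were 0.168, 0.435 and 1.26 CPM. The groups did not overlap, and lymphoma replicate 7 came closest to the controls. At least 10 counts were reached in 7 lymphoma and 2 non-lymphoma libraries, so the gene met the count minimum through the group where it is high. The log2 fold change was 3.98 (edgeR adjusted p = 0.000503, SE 0.51). It was called in each of the other fits made, and within the 5-digit libraries the log2 fold change was 4.53 (edgeR adjusted p = 0.00675).

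Next came a gene of 122 bases on chromosome 27, at 32161828 to 32161949. Its levels in lymphoma were 1.26, 1.39 and 6.29 CPM at the lowest, the median and the highest. In non-lymphoma blood they were 0, 0.264 and 0.871 CPM, where the 0 in replicate 2 allows up to 0.21 CPM. The groups did not overlap, and lymphoma replicates 3, 5 and 7 stood above the other 4. The gene rose by a log2 difference of 2.83 (edgeR adjusted p = 0.00691, SE 0.59), with 9 to 42 counts against 0 to 16. It reached 10 counts in 6 lymphoma and 2 non-lymphoma libraries, so it met the count minimum mainly through the group where it is high. After thinning to the smallest total the gene no longer entered the test.

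The most abundant of all 106 genes was also called higher. It has 156 bases and lies on chromosome 10, at 49680971 to 49681126 on the minus strand, between annotated genes. Its levels were 25, 60.7 and 84 CPM in lymphoma and 8.98, 19.2 and 27.8 CPM in non-lymphoma blood (lowest, median, highest). Only lymphoma replicate 3, at 25 CPM, fell among the non-lymphoma values, under replicates 1 and 3. The mean was 54.2 ± 22.3 CPM against 18.4 ± 7.1 CPM (± SD over 7 libraries each), a log2 difference of 1.56 (edgeR adjusted p = 0.00563, SE 0.31). On the 271 to 1266 and 160 to 578 counts behind it, counting error is small beside the spread of libraries.

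A gene of 141 bases on chromosome 13, at 47687125 to 47687265, had 1.26, 2.4 and 2.92 CPM in lymphoma and 0.164, 0.528 and 1.7 CPM in non-lymphoma libraries. The groups overlapped through non-lymphoma replicate 4, at 1.7 CPM, which lay above lymphoma replicates 4 and 7. It rose by a log2 difference of 1.70 (edgeR adjusted p = 0.0189, SE 0.45), on as few as 3 counts in a library.

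On chromosome 8 a gene of 177 bases, at 10653492 to 10653668, had 1.65, 2.23 and 2.95 CPM in lymphoma and 0.396, 1.09 and 1.31 CPM in non-lymphoma blood, with no overlap. Its log2 fold change was 1.18 (edgeR adjusted p = 0.0142, SE 0.29). Chromosome 6 held the pair of weakest calls. The gene of 126 bases at 52550499 to 52550624 had 1.92, 2.7 and 5.19 CPM against 0.968, 1.48 and 2.08 CPM, and the groups overlapped at their edges. Its log2 fold change was 1.0 (edgeR adjusted p = 0.0348, SE 0.30).

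The gene of 192 bases at 63616803 to 63616994 of chromosome 6 had 7.2, 10.6 and 25.7 CPM against 4.27, 6.86 and 11.1 CPM. Only lymphoma replicates 2, 5 and 7 lay above every control. Its log2 fold change was 0.93 (edgeR adjusted p = 0.0474, SE 0.31). The call at 52550499 was lost when lymphoma replicate 2, 5 or 6, or control replicate 1, 2, 4 or 6, was left out (edgeR adjusted p up to 0.0675). That at 63616803 was lost when lymphoma replicate 2, 5 or 7, or any control other than replicate 3, was left out (edgeR adjusted p up to 0.117, lowest log2 fold change 0.70). Library totals alone, or no filter on low counts, also ended both calls and the one on chromosome 8. Thinning to the smallest total ended both chromosome 6 calls (edgeR adjusted p = 0.0626 at 52550499 and 0.0532 at 63616803). At 63616803 upper-quartile factors (edgeR adjusted p = 0.056) and limma-voom (adjusted p = 0.0873) did so too.

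The single lower call was a gene of 171 bases on chromosome 17, at 35142133 to 35142303 on the minus strand (ENSCAFG00000048216). It had 0.369, 0.759 and 1.92 CPM in lymphoma and 1.78, 2.03 and 2.96 CPM in non-lymphoma libraries, from 4 to 29 and 29 to 54 counts. At least 10 counts were reached in 2 lymphoma and 7 non-lymphoma libraries, so this gene too met the minimum through the group where it is high. Lymphoma replicate 1, at 1.92 CPM, was the only lymphoma library among the controls, and all 7 lay below the non-lymphoma median. The log2 fold change was -1.22 (edgeR adjusted p = 0.0257, SE 0.34). The call ended when lymphoma replicate 4 or control replicate 6 was left out (edgeR adjusted p up to 0.0548). Testing every gene with no low-count filter ended it too (edgeR adjusted p = 0.0536).

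The remaining 3 calls, all higher, lay within 4176 bases of chromosome 21 and are given with their neighbours further on. All 10 genes called higher had 7 of 7 lymphoma libraries above the non-lymphoma median. The same libraries gave the calls, so this describes the calls and is no support for them. Lymphoma and non-lymphoma values did not overlap at 5 of the 97 tested genes, all higher in lymphoma. That is 5.15%, beside 2.03% of all tested genes in that direction. Among the 5 are the genes at 32732079 of chromosome 21 and 32161828 of chromosome 27. These reached 10 counts in 7 and 6 lymphoma libraries and in 2 non-lymphoma libraries each. They thus met the count minimum mainly through the group where they are high, so this share is no support for a rise. At 0 of the 97 was every lymphoma library below every control, beside 1.75% of all tested genes. Apart from the gene at 32732079 and that at 7020494 of chromosome 21, the calls did not hold within the 5-digit libraries, where 2 lymphoma libraries stand against 7. There the 10 log2 fold changes were all positive, from 0.82 to 4.53. These libraries are among the 14 that gave the calls, so the signs are no support for them.

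**Figure D3:**
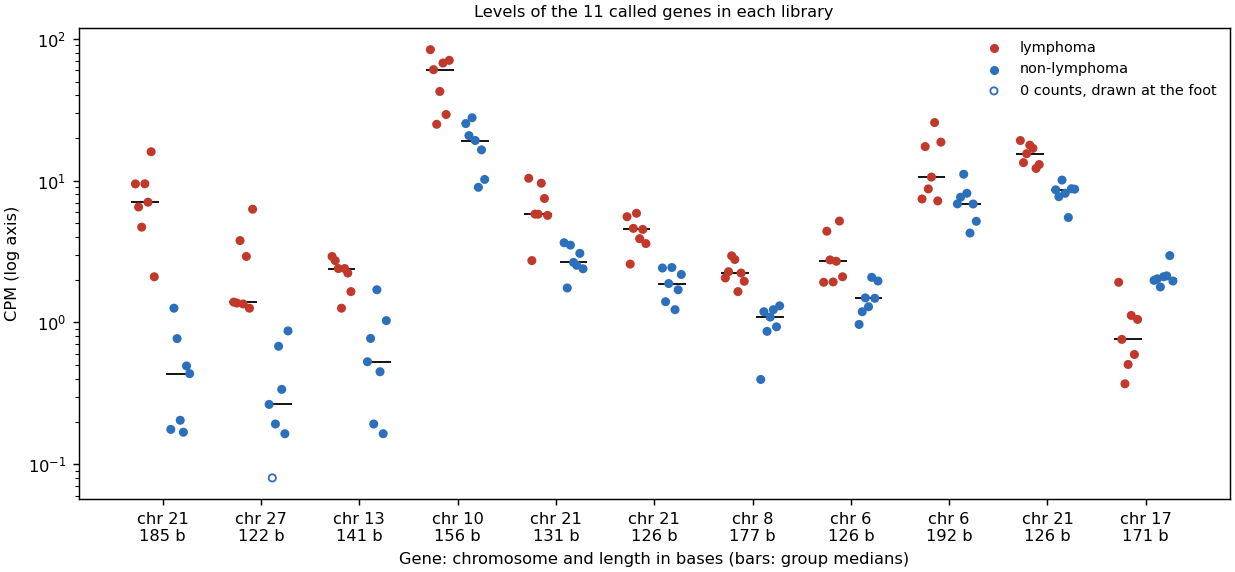
CPM on a log axis of the 11 called genes, ordered by log2 fold change; each point is a library (red, lymphoma; blue, non-lymphoma; n = 7 each), bars are group medians, and the open point marks a library at 0 counts. The first 2 genes show the widest gaps, and the last gene, on chromosome 17, is the lower call.

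Of the 10 small genes with the highest mean CPM 3 were called, all higher, beside 9.21% of all tested genes called higher. These were the genes at 49680971 of chromosome 10 and 63616803 of chromosome 6, given above, and that at 7022772 of chromosome 21. Other genes of like abundance were not set beside them. Together the 10 made up 50.3% of the summed CPM of the 106. Per kilobase of length, levels ran from 3.2 to 233 CPM per kb over the 106 genes, with a median of 9.91. Multi-exon genes under the same count minimum had a median of 7.68 CPM per kb. That minimum asks for more CPM per kb the shorter a gene is. The medians therefore do not show which kind of gene is denser.

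The second most abundant, of 139 bases at 51707336 of chromosome 18, had 25.4 ± 10.9 CPM in lymphoma and 34.2 ± 9.37 CPM in the controls (± SD over 7 libraries each; log2 fold change -0.43, SE 0.27, edgeR adjusted p = 0.273). At 58378700 of chromosome 4, a gene of 183 bases had 24.8 ± 8.5 against 24 ± 13.3 CPM (± SD over 7 libraries each; log2 fold change 0.04, SE 0.31), with non-lymphoma replicate 3 alone at 52.1 CPM. At both genes the means lay closer together than the SD of the wider group.

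A gene of 148 bases at 13008500 of chromosome 28 had 15.3 to 43.7 CPM in lymphoma and 11.5 to 40.8 CPM in non-lymphoma blood (log2 fold change 0.15, SE 0.32). Its non-lymphoma libraries were split, with replicates 2 and 7 at 39.8 and 40.8 CPM and the other 5 at 18.7 CPM or less. At 32761581 of chromosome 5 a gene of 141 bases ran from 6.74 to 20 CPM in lymphoma and from 3.7 to 25.2 CPM in non-lymphoma blood (log2 fold change -0.11, SE 0.39). Non-lymphoma replicates 1, 3 and 4, at 25.2, 21.7 and 16 CPM, stood above the other 4 controls.

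The gene at 3404705 of chromosome 35 was the steadiest of these, with 7.99 to 15.2 CPM against 6.97 to 11.8 CPM (log2 fold change 0.23, SE 0.19). At 4609385 of chromosome 27 the ranges were 3.6 to 14.8 and 4.49 to 11.4 CPM (log2 fold change 0.08, SE 0.29). At 40713879 of the same chromosome they were 2.28 to 8.5 and 5.5 to 14 CPM. There all 7 lymphoma libraries lay below the non-lymphoma median, but the log2 fold change of -0.58 (SE 0.27) did not pass (edgeR adjusted p = 0.14).

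Placement beside other genes was known for all 106. None overlapped an exon of another annotated gene, as 44 of the 1107 genes of this size did. The counting set no option for overlapping genes, and whether such a gene could reach the count minimum was not tested. In introns of multi-exon genes lay 63, of which 46 were on the strand of the holding gene and 17 on the other, and 43 lay between genes. The counting set no strand option. Median log2 fold changes were 0.33 for the 40 tested genes in introns on the same strand, 0.21 for 16 on the other strand and 0.29 for 41 between genes, with 2, 2 and 6 called higher. As shares these are 5.0%, 12.5% and 14.6%, beside 9.21% of all tested genes, and they rest on few genes. The lower call was among those between genes.

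The holding genes gave a second reading of the same place, and fold changes of small and holding genes were only loosely related. For 56 small genes both they and the gene around them were tested, with 51 different holding genes. The median log2 fold change was 0.28 for the small genes and 0.24 for the genes around them, and the small gene had the higher value in 37 of 56, with a median difference of 0.30. The sign was shared in 37 of 56. Of the 51 holding genes 6 were called higher and 2 lower. Among 11891 tested multi-exon genes under the same count minimum, 1117 (9.39%) were called higher and 867 (7.29%) lower. Both the small gene and its holding gene were called higher in 2 places. Across the 56 pairs the fold changes had a Pearson r of 0.26, and 0.15 without the gene at 32732079 of chromosome 21. Across the 14 libraries, log2 CPM of a small gene and its holding gene had a median r of 0.32, where any pair of small genes had a median of 0.07 over 4656 pairs. With the group means removed the medians were 0.34 and 0.04. Pooled over the 14 libraries, the median was 0.33 for 40 pairs on the same strand and 0.27 for 16 on the other. Pairs of small genes are an unlike yardstick, since low counts on both sides can lower an r. Small genes were not set against multi-exon genes that do not hold them. These correlations are descriptions, since all points share libraries, depth and scaling.

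The gene at 32732079 of chromosome 21 lies in an intron of a 26-exon gene at 32691933 to 32746124, on the same strand. The holding gene had 88.4 ± 21.6 CPM in lymphoma and 50.4 ± 8.02 CPM in the controls (± SD over 7 libraries each), a log2 difference of 0.81 (edgeR adjusted p = 0.00702, SE 0.17). The small gene's own log2 fold change was larger by 3.17. Its log2 CPM minus that of the holding gene ran from -4.93 to -2.08 in lymphoma. In non-lymphoma libraries this difference ran from -7.60 to -5.31, without overlap. These values reuse the small gene's own counts, and it met the count minimum through lymphoma, so their separation is no further support. Over the 14 libraries pooled, log2 CPM of the small gene and its holding gene had an r of 0.80, and with the group means removed it was 0.16.

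At 32161828 of chromosome 27 the holding gene, on the other strand with 16 exons, had 300 ± 74.4 against 223 ± 42.3 CPM (± SD over 7 libraries each; log2 fold change 0.43, SE 0.18) and was not called (edgeR adjusted p = 0.109). The log2 level relative to it ran from -8.17 to -5.86 in lymphoma and from -10.49 to -7.78 in non-lymphoma blood, with some overlap. Around the chromosome 8 gene, a 37-exon gene on the other strand was itself called higher, by a log2 difference of 0.76 (edgeR adjusted p = 0.0307, SE 0.22). That call ended when lymphoma replicate 2 or 5, or control replicate 1, 5 or 6, was left out. The small gene's value was larger by 0.42, a difference that was not tested.

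Around the gene at 52550499 of chromosome 6, a 24-exon gene on the same strand had a log2 fold change of -0.19 (SE 0.27), below the small gene's value by 1.19. The order was reversed at 13008500 of chromosome 28, where the 14-exon holding gene was called higher by 0.91 (edgeR adjusted p = 0.0116, SE 0.21) and the small gene was not. With library totals alone neither this holding gene nor that of 32732079 was called. The small gene of chromosome 28 had 25.1 times the CPM per kb of the exons of its holding gene, and the r of their log2 CPM was -0.13 over the libraries and -0.46 with the group means removed. In 10 of the 56 pairs the small gene had the higher CPM per kb, and the median ratio was 0.232. The counting set no minimum overlap between a read pair and a small gene. What part of these counts belongs to longer transcripts that cross the same bases was not tested.

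**Figure D4:**
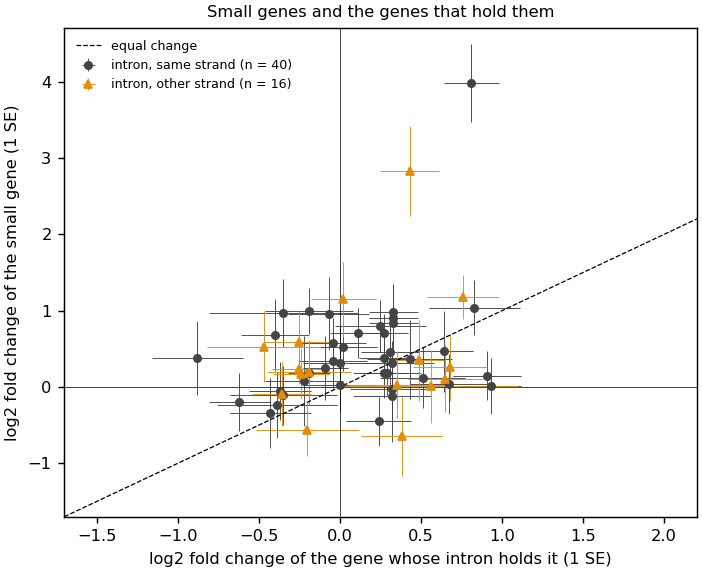
Log2 fold change of 56 small genes against that of the gene whose intron holds them, with bars of 1 SE; circles, same strand (40); triangles, other strand (16); dashed line, equal change. The points at 3.98 and 2.83 stand far above the line, and the rest scatter around it with 37 of all 56 above.

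Small genes that lay close together were few. Runs of at least 2 members no more than 10000 bases apart held 20 of the 106 genes, in 7 runs. The largest held 6 within 4176 bases of chromosome 21, from 7019136 to 7023311, all on the plus strand. It lies between a 9-exon gene on the same strand that ends at 7018254 and a 24-exon gene on the other strand that starts at 7023491. A further pair of shorter single-exon genes, of 72 and 73 bases, is interleaved with the 6.

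Of these 6, 3 were called higher and 3 were not. The strongest by p was the gene of 126 bases at 7022772 to 7022897 (ENSCAFG00000022498), with 12.2, 15.5 and 19.2 CPM in lymphoma and 5.5, 8.62 and 10.1 CPM in non-lymphoma blood (lowest, median, highest). The groups did not overlap, and the log2 fold change was 0.91 (edgeR adjusted p = 0.00468, SE 0.17). At 7019136 a gene of 126 bases had 2.58, 4.53 and 5.89 CPM against 1.23, 1.88 and 2.44 CPM, again without overlap (log2 fold change 1.21, SE 0.25, edgeR adjusted p = 0.00717). At 7020494 a gene of 131 bases had 2.73, 5.81 and 10.4 CPM against 1.75, 2.65 and 3.65 CPM (log2 fold change 1.28, SE 0.28, edgeR adjusted p = 0.00825). In this gene lymphoma replicate 2 lay among the controls. Both calls of the genes of 126 bases were lost with library totals alone.

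Between and after them stood genes of almost the same length that did not pass. The gene of 139 bases at 7021541 had 3.82 ± 1.47 CPM in lymphoma and 3.62 ± 0.515 CPM in the controls (± SD over 7 libraries each), a log2 difference of 0.09 (edgeR adjusted p = 0.835, SE 0.25). Those at 7021916 and 7023183 had log2 fold changes of 0.58 (SE 0.26) and 0.46 (SE 0.29). The interleaved genes of 72 and 73 bases had values of 1.04 (SE 0.42) and 0.25 (SE 0.20) and were not called. Differences between neighbours were not tested.

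The 9-exon gene just before the run rose as well, with 64.9 ± 12.4 against 31.1 ± 9.81 CPM (± SD over 7 libraries each; log2 fold change 1.06, SE 0.20, edgeR adjusted p = 0.00484). Over the 14 libraries pooled, its log2 CPM had an r of 0.88 with the called gene at 7022772 and of 0.73 with both other called genes. For the uncalled genes at 7021541, 7021916 and 7023183 it was 0.04, 0.49 and 0.32, and for the 24-exon gene after the run 0.72. A pooled r holds the difference between the groups. With the group means removed it was 0.56 at 7022772, 0.04 at 7019136 and 0.23 at 7020494, from -0.06 to 0.14 at the uncalled 3, and 0.52 for the 24-exon gene. Pairs among the 6 had a median r of 0.64 pooled, from 0.02 to 0.91, and of 0.52 with the group means removed, from 0.02 to 0.86. All of these values share libraries and scaling and carry no p.

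**Figure D5:**
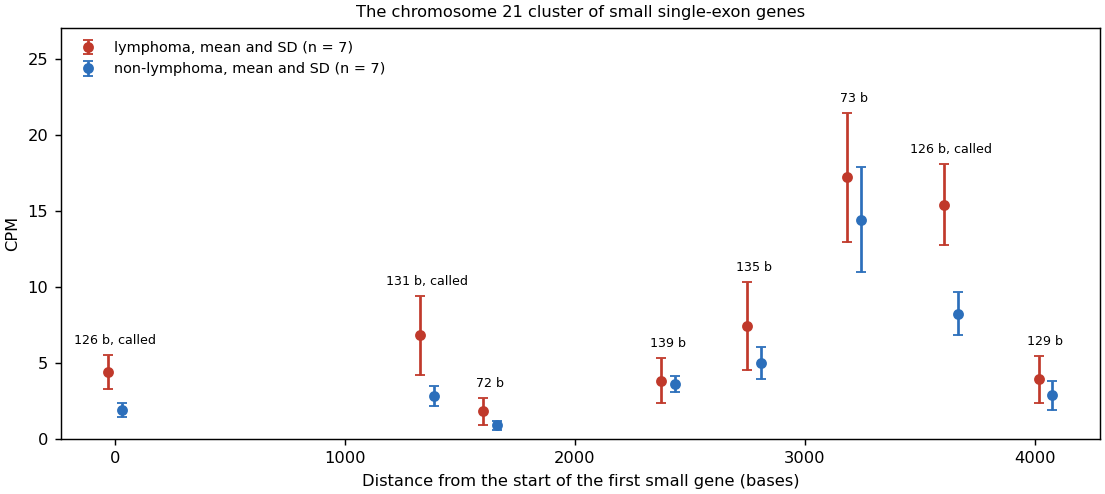
CPM of the 8 small single-exon genes of the chromosome 21 run against distance in bases from the start of the first (points, group mean; bars, SD; n = 7 each; red, lymphoma; blue, non-lymphoma), each labelled with its length. The called genes are the first, the second and the last but 1, and the gene of 139 bases has nearly equal means.

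The other 6 runs held 0 called genes. On chromosome 34, 3 genes between 19357972 and 19358868 lie in introns of 1 gene on its strand. Their mean levels in lymphoma were 4.21, 6.92 and 2.2 CPM and in non-lymphoma blood 2.57, 6.12 and 1.69 CPM, in order of position. The first had a log2 fold change of 0.71 (SE 0.25) and narrowly missed the threshold (edgeR adjusted p = 0.0605). On chromosome 2, the pair at 58101384 and 58111422 lies in introns of a 51-exon gene, with log2 fold changes of 0.84 (SE 0.29) and 0.90 (SE 0.44). The 3 genes of chromosome 2 between 71915775 and 71916882 differed in sign, from -0.27 to 0.69. These genes of other runs were chosen for their place after their values were seen.

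Every call lay among the more abundant genes. All 11 were among the 53 genes with the higher mean CPM, and 0 of 44 tested genes among the rest passed. Of the 53, 18.9% were called higher and 1.89% lower, beside 9.21% and 7.4% of all 12836 tested genes. All tested genes were not split by abundance, so the split is not shown to be particular to the small genes. Of the 106 genes 73 had a mean under 2 CPM, and 15 had 0 counts in at least 1 library. The median SD of log2 CPM within a group was 0.67 for the 97 tested genes against 0.51 for all tested genes. For the 97 it was 0.69 in lymphoma and 0.54 in non-lymphoma blood, beside 0.52 and 0.45 for all tested genes. Among the 91 genes with no count of 0, the highest library had a median of 6.41 times the CPM of the lowest.

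The count minimum fell unevenly on the groups. At least 10 counts were reached in all 14 libraries by 29 of the 106 genes, and in more non-lymphoma than lymphoma libraries by 51, against 16 the other way. In 3 genes 7 non-lymphoma but under 3 lymphoma libraries reached it, and in 1 gene 7 lymphoma but under 3 non-lymphoma libraries did. The last is the gene at 32732079 of chromosome 21, and the lower call on chromosome 17 is among the 3. The 9 genes that met the rule but were not tested had too few libraries over the level filter of the test. Several genes stood just inside the rule, with a seventh-highest count of 10. The 3 of them with the lowest mean CPM were at 1477018 of chromosome 23, 24558858 of chromosome 3 and 58111422 of chromosome 2. Just outside, with 9, the 3 with the largest summed counts were at 16223464 of chromosome 26, 26920560 of chromosome 24 and 20818801 of chromosome 10. The gene at 16223464, of 141 bases, had 45, 9, 25, 35, 27, 83 and 9 counts in lymphoma replicates 1 to 7 and 1, 4, 4, 0, 0, 5 and 10 in the non-lymphoma replicates.

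Genes of neighbouring sizes under the same count minimum are given beside them. At 60 to 109 bases, 96 genes were tested, the median log2 fold change was 0.29, and 11 genes were called higher and 1 lower. At 200 to 399 bases, 130 were tested, the median was -0.03, and 15 were called higher and 7 lower. Their shares of counts were 0.044 ± 0.00455% and 3.7 ± 2.89% in lymphoma and 0.0384 ± 0.0051% and 0.341 ± 0.153% in the controls (± SD over 7 libraries each). Differences between the size classes were not tested.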

How the data were processed

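Counts of read pairs per gene were made by the authors with featureCounts 2.0.1 on Ensembl release 103 annotation of CanFam3.1, per the file headers. The command sets no option for strand, multiple mapping, overlapping genes or least overlap. HISAT2 2.2.1, Subread 2.0.1 and DESeq2 are named in the submitters' processing notes. The deposited raw counts were compared here with edgeR 4.0.16 in R 4.3.3: TMM factors, genes kept by filterByExpr, a quasi-likelihood F test on group alone, with p-values adjusted by Benjamini-Hochberg over all 12836 genes at 0.05. Standard errors come from log2 fold changes and the square root of F. The biological coefficient of variation was 41.5%. On simulated counts with 200 changed genes (12719 tested), a log2 change of 1 was recovered in 30 of 99 genes and a change of 2 in 95 of 96, with 2 false calls. Every simulated gene had this same variation, and changed genes were drawn from all tested genes. The rates therefore do not measure recovery among the small genes. Exon intervals were merged with Python 3.11.15 and pandas 2.3.3. A gene was held by another when it lay in its introns, the same strand taken first and then the shorter gene (3 genes lay in 2). No 2 libraries were near-identical (smallest chi-square per degree of freedom 52.9).

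Genes named singly were the called ones, at most 12 in each direction, the 10 most abundant and the genes holding them, and identifiers are printed for at most 2 per direction. The members and lists were chosen with earlier results of these data known. Alternatives covered scaling, filters, thinning, tests (DESeq2 1.42.0, limma 3.58.1), a replicate term and subsets of libraries.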

Additional observations from a re-analysis of the deposited data

Results flagged for a closer look

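Among 54 groups of 7 libraries examined for the named genes, the genes holding them and the sums over the 106 genes, 5 held a library that stood apart, where chance gives about 1 in 20, or 2.7. Each value below is how far that library lay from its closest neighbour, as a part of the whole spread of its group in log2 CPM. Non-lymphoma replicate 1 was lowest at the chromosome 8 gene starting at 10653492 (0.63), and non-lymphoma replicate 6 was highest at the chromosome 17 gene starting at 35142133 (0.65), where its omission ended the lower call. Non-lymphoma replicate 2 was lowest at the chromosome 18 gene starting at 51707336 (0.57). Lymphoma replicate 2 was lowest at the chromosome 27 gene starting at 40713879 (0.73). Non-lymphoma replicate 4 was highest at the 16-exon gene of chromosome 27 starting at 32086675, which holds the gene at 32161828 (0.60).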

How the results depend on the processing

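The 10 higher calls became 5 with library totals only, 17 with DESeq2, 6 with the replicate block and 2 within the 5-digit libraries, and the 1 lower call became 2, 2, 0 and 0 in the same order. Over all tested genes, 1182 higher calls became 545, 1706, 440 and 82, and 950 lower calls became 1407, 1471, 285 and 22. Of the 10 small genes called higher, 10 were among the DESeq2 calls and 5 among those with library totals. The lower calls were 0 without a filter on low counts and 2 with limma-voom or after thinning. Over all tested genes the lower calls there were 1133, 942 and 871. With 1 library left out, 9 to 13 of 99 to 104 tested small genes were called higher and 0 to 2 lower. The lower calls were 2 without lymphoma replicate 2 or 3 or non-lymphoma replicate 3, and 0 without non-lymphoma replicate 6. Over all tested genes these fits gave 823 to 1397 higher and 577 to 1119 lower calls. The median log2 fold change of 0.29 fell to 0.06 with library totals only, and the cause of these changes was not tested. The other fits gave 0.21 to 0.35. The difference in the share of counts ran from 0.000982 percentage points without lymphoma replicate 1 to 0.00645 within the 5-digit libraries, moving from 0.00363 by less than 1 SD. The median difference of 0.30 from the holding genes ran from 0.15 with limma-voom to 0.34, in alternatives chosen after seeing the data. Leaving out members with exon overlap removed none. For named and holding genes, 59 of the repeated values lost a call and 615 kept their side of the threshold, with 0 reversed calls. The gene at 32161828 of chromosome 27 did not enter the test after thinning, so that fit is not counted here for it. Replicate numbers did not pair the libraries: same-numbered deviations from the group means had correlations from -0.337 to 0.345, and 1 of 7 lymphoma libraries correlated best with its own number. Depth limited the scarce genes: 3 counts stand for 0.132 to 0.455 CPM, depending on the library.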

Other observations

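The 106 genes were unevenly spread over 35 chromosomes. On chromosome 21, 12 of 29 genes of this structure and size met the rule, beside 106 of 1107, or 9.58%, over all placed chromosomes. By number of genes chromosome 5 followed, with 8 of 43, and by share chromosome 34, with 4 of 20. Of the 1107 genes, 340 had 0 counts in all 14 libraries. Among size ranges, genes of 170 to 184 bases met the rule most often, with 17 of 89, and those of 110 to 124 bases least often, with 11 of 231. The most common length in the table, 145 bases, held 50 genes and 2 of the 106.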
